A study of Drosophila melanogaster with 2 samples.

Results

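The genes ush and cbt share a piece of chromosome arm 2L, and it held many candidate peaks in ChIP-seq of Huckebein fused to a green fluorescent protein (GFP). Candidates were taken from the ranked list that combines both replicates when their summit lay in either gene or within 10 kb of it. This rule gave 126 of the 94831 candidates, in the window 2L:466220-550560 (84341 bp, dm6). The locus was chosen for its strong values in this same list, that is the locus was selected on the signal values and ranks of the combined list, so they and the counts are given as a description and no test is made. A candidate passes here when its IDR, the irreproducible discovery rate by which 2 rankings of peaks are compared, is at most 0.01, which is a −log10 IDR of at least 2. At the locus 23 candidates passed, where 7.79% of all candidates did. The authors' thresholded list, called listed peaks below, held 17 of the 126, where it held 7.61% of all candidates. All 17 were among the 23 that passed. The other 6 of these 23 passed and were not listed, where 2.33% of all passing candidates were not.

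The study sequenced chromatin from whole Drosophila melanogaster embryos collected from 0 to 24 h, of the strain hkb-GFP, whose flies express hkb-eGFP. There was 1 group with 2 biological replicates, and both carry the fusion through an insertion that targets hkb. Sonicated fragments of 200 to 800 bp were enriched with anti-GFP. All tissues and embryonic ages are mixed and sex was not recorded, so a peak cannot be given to a cell type or a stage, and no control chromatin was used here. The signal value is the authors' score for a candidate and serves to rank candidates within a list. The number of reads is not known from the lists, so each replicate's value is given with no interval.

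u-shaped (ush, FBgn0003963, 2L:476220-540560, plus strand) encodes a zinc finger cofactor of the FOG family. It binds GATA factors such as Pannier and Serpent and is known from dorsal patterning of the embryo, from blood cell formation and from the heart, downstream of the signal Dpp. cabut (cbt, FBgn0043364, 2L:476446-479688, minus strand) encodes a zinc finger factor of the TIEG and KLF type, known from dorsal closure, where JNK and Dpp signals meet, and as a gene that responds to sugar through Mondo. Huckebein itself is a zinc finger factor of the Sp and KLF kind that is needed at the anterior and posterior poles of the young embryo, where the Torso receptor turns it on. In the annotation cbt lies wholly inside ush, on the opposite strand, in the first intron of the long transcripts ush-RD and ush-RE. A position upstream of cbt is therefore at the same time downstream of the ush-RD start, and a candidate there cannot be assigned to either gene from the lists.

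The sequences at the summits on which the results turn are shown first, each with 50 bp on either side of the summit. They were read from RefSeq Release 6, which has the coordinates of dm6, on the plus strand, and are named by the position of the summit on 2L. Capitals mark matches to the motifs searched, other than the short Mad and Medea sites. The first group holds the strongest 4 candidates that pass without being listed, which lie around cbt and upstream of CG4297.
summit 481085: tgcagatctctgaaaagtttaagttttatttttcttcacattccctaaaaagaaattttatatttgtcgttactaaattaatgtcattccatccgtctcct
summit 480074: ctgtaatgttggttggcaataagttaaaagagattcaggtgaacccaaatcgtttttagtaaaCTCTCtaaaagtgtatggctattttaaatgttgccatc
summit 472478: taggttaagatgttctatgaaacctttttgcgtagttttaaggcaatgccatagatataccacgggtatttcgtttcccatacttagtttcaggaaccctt
summit 481974: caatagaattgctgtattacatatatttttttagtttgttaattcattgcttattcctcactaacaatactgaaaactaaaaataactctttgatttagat
The next group holds the strongest 2 listed peaks of the locus, both in introns of ush, for comparison.
summit 485864: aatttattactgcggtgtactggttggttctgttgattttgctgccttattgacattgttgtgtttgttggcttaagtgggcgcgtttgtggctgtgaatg
summit 520849: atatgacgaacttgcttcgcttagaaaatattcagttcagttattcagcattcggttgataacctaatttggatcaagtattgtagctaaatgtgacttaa
The last group holds listed peaks whose windows carry most of the motif matches, at the ush-RB start and in the long intron before ush-RA.
summit 490779: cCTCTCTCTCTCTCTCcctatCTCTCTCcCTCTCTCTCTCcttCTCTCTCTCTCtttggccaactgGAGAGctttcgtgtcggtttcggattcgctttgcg
summit 510692: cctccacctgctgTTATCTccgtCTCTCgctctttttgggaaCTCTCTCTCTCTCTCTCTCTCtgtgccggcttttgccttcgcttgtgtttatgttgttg
summit 522152: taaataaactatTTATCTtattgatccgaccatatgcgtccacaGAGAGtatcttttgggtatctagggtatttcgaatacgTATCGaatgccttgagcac

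The highest candidate of the locus lay at 2L:480893-481273, with its summit at 481085, in an intron of ush. It was 1397 bp upstream of the cbt start and 4865 bp downstream of the ush-RD start. Values called combined below come from the list that joins both replicates. The signal value of this candidate was 2348.9 combined, 1331.73 in replicate 1 and 1018.92 in replicate 2. It had rank 3 in each of these lists, whose strongest candidates anywhere reached 2888.85, 1721.49 and 1174.0, and the summits of the replicates were 1 bp apart. The next candidate of the locus had 560.26 combined. This candidate was in none of the 4 deposited thresholded lists, that is the combined, the conservative and the 2 replicate lists.

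Beside it stood further candidates around the cbt start. The candidate at the cbt promoter, 386 bp upstream of its start with the summit at 480074, had a signal value of 560.26 and rank 229. It had 320.85 in replicate 1 and 247.42 in replicate 2. The candidate at 481974, 2286 bp upstream of cbt, had 326.49 combined, 200.2 in replicate 1 and 139.22 in replicate 2. Inside cbt a weaker candidate lay in the 5′ untranslated region, 549 bp downstream of the start, with 116.01 combined, 77.99 in replicate 1 and 46.6 in replicate 2. All of these passed in both replicates as well as in the combined list, and none was listed.

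On the far side of cbt, beyond the gene for the Mediator subunit MED15 (2L:473013-476170), lay the other candidates that passed without being listed. The candidate at 472478 had a signal value of 503.46 combined, 250.18 in replicate 1 and 245.03 in replicate 2. It lies between a pair of diverging genes, 278 bp upstream of a CG4297 start and 535 bp upstream of the MED15 start. The candidate at 471316, 239 bp downstream of another CG4297 start, had 175.27 combined, 95.25 in replicate 1 and 83.17 in replicate 2. CG4297 (2L:458876-472200, minus strand) lies left of ush.

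**Figure D1:**
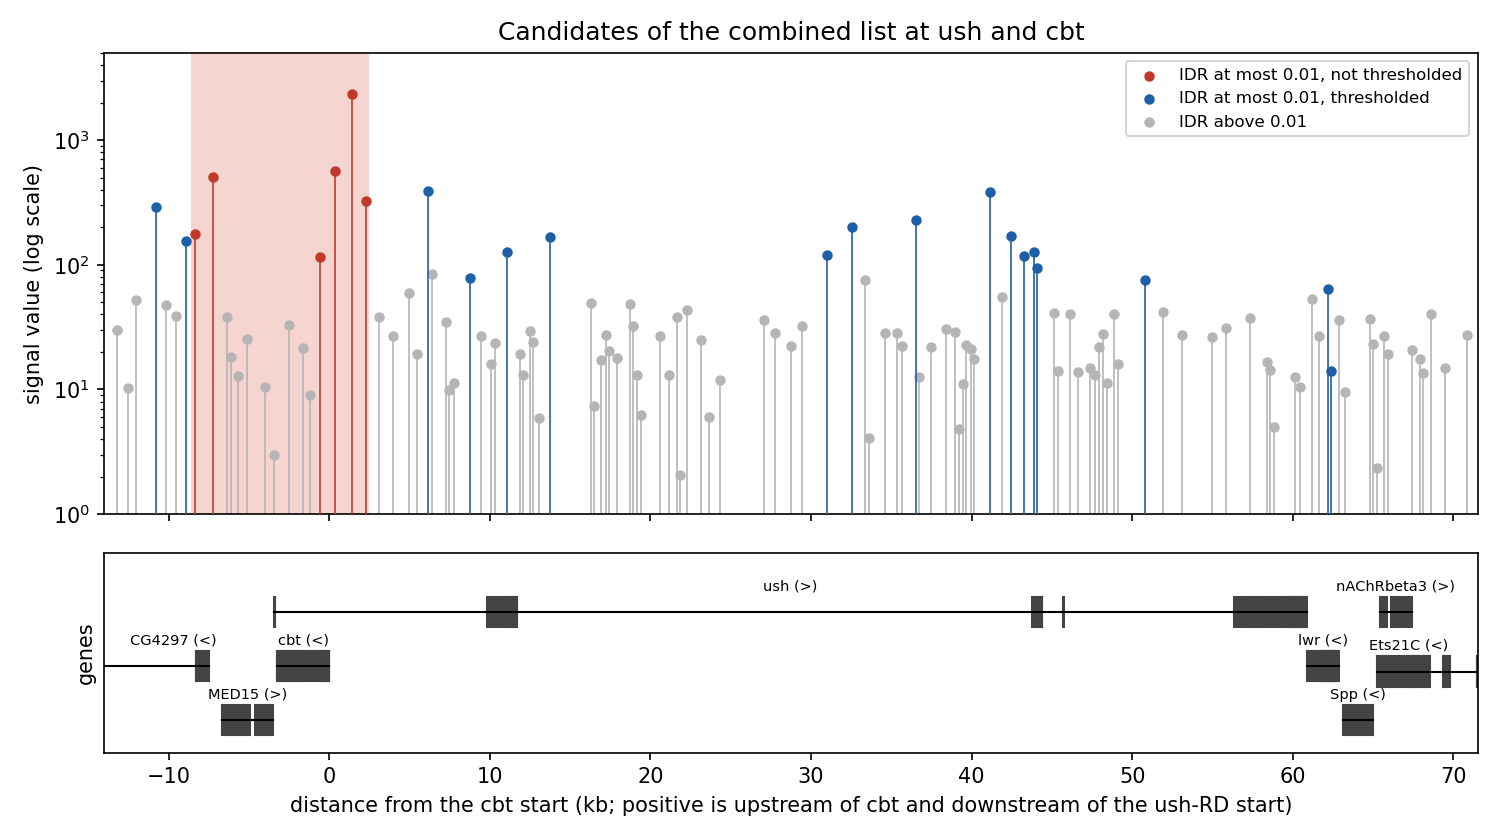
Signal value of each of the 126 candidates (log scale) against the distance of its summit from the cbt start in kb, above the annotated genes, where blocks are exons and arrows give the strand. Red points passed IDR 0.01 without being listed, blue points passed and were listed, grey points did not pass, and the shaded stretch of 10950 bp holds all 6 red points and no blue one.

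The 6 candidates that passed without being listed followed each other with no listed peak between them. They took up 2L:471124-482073, a stretch of 10950 bp or 13.0% of the window, which held 15 candidates in all. On its left the last listed peak ended at 470951, 172 bp before the stretch, with a signal value of 154.3. On its right the next listed peak began at 485742, 3668 bp beyond the stretch, with a signal value of 392.59. Every one of the 17 passing candidates outside the stretch was listed.

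The same stretch was empty in each pair of a ranked and a thresholded list. In the other combined ranked list and the conservative list 22 candidates of the locus passed and 16 were listed. These were not all the same peaks. The conservative list lacked the listed peaks at 488452, 523749, 541880 and 542080. It held candidates at 486084, 513045 and 513274, which did not pass in the combined list. In replicate 1 19 passed and 13 were listed, and in replicate 2 18 passed and 12 were listed. Each pair left out 6 passing candidates and listed all passing candidates outside the stretch that they span, which was 2L:471139-482058 in replicate 1, 2L:471111-482035 in replicate 2 and unchanged in the conservative pair.

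**Figure D2:**
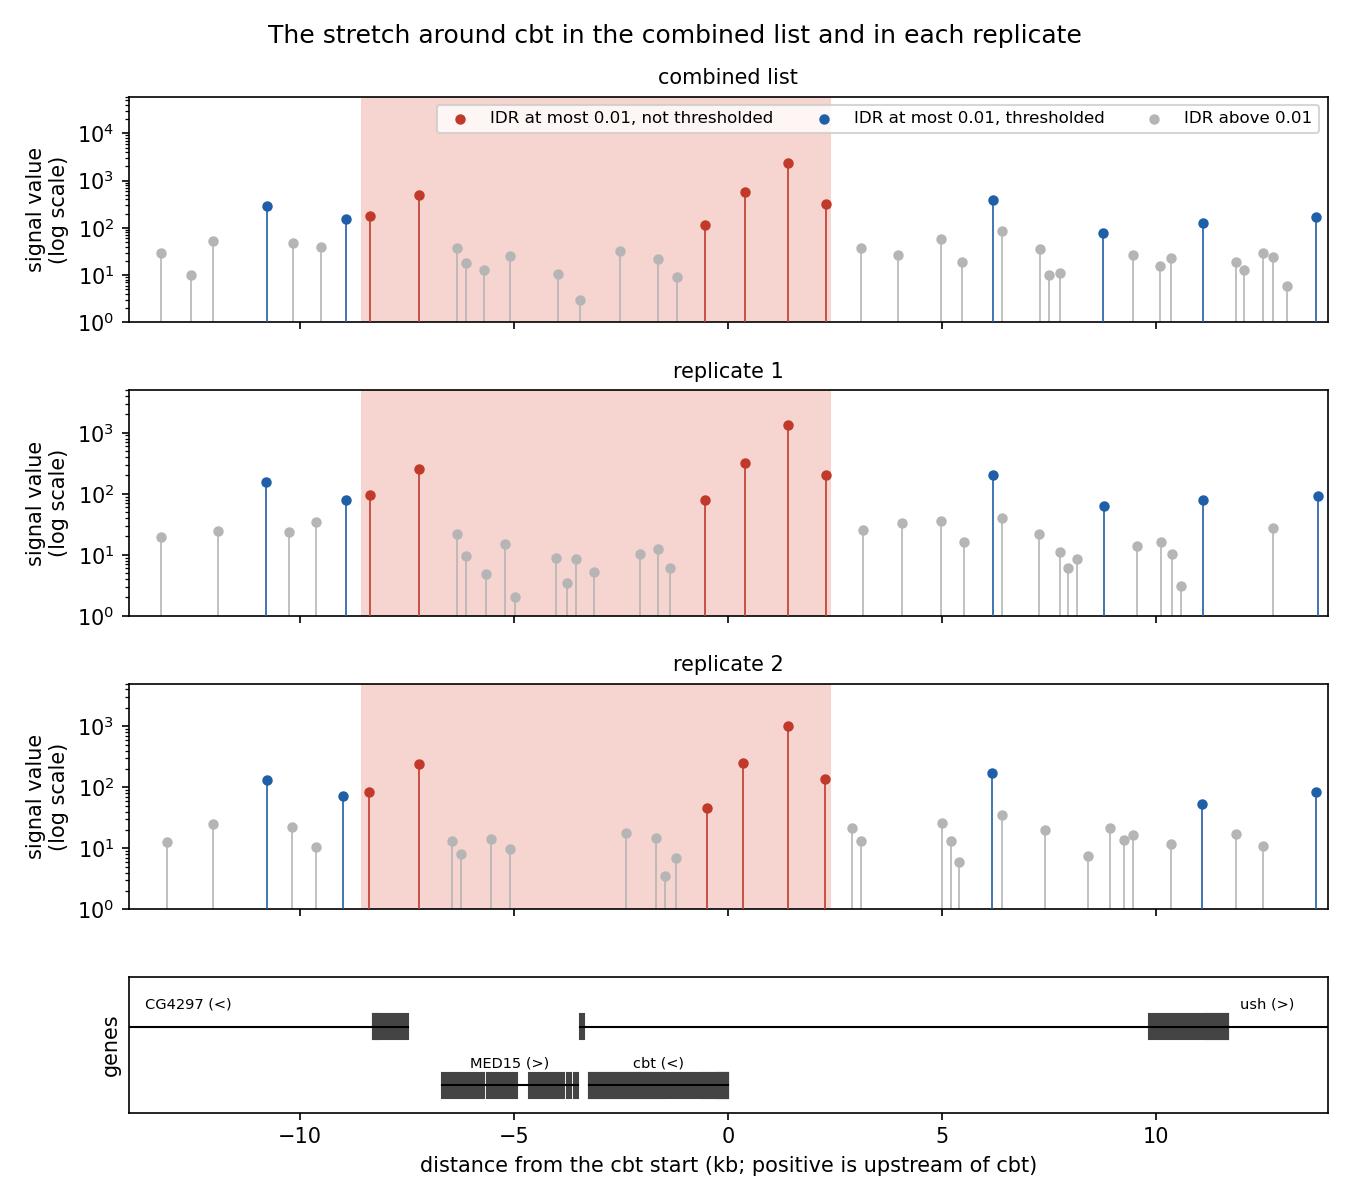
Signal value (log scale) of the candidates around the cbt start in the combined list and in each replicate, with the genes below. The shaded stretch around cbt holds 6 passing candidates that were not listed (red) in all 3 panels, and the listed peaks (blue) begin on both sides of it.

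Passing candidates that were not listed occurred in other places too. There were 172 in the combined list, of which 111 lay on 3R, 38 on 2L and 5 on X, and none on 4. On the arms they formed 68 runs with no listed passing candidate between them, and 26 of these were single candidates. Only 5 other runs held as many as the 6 at cbt or more, the largest of them with 13 candidates at 2L:12002959-12012747 and a highest signal value of 278.92. Outside the ush and cbt locus the strongest such candidates had as their nearest protein-coding genes Lk6, which encodes a kinase of the translation initiation factor eIF4E (1579.26, rank 14), larp, which encodes a La-related RNA-binding protein (1163.05, rank 41), CG18428 (1126.32, rank 47), tara (956.28, rank 72) and trx, which encodes the histone methyltransferase Trithorax (890.03, rank 84). All 5 lie on 3R, and none of them reached the 2348.9 at cbt.

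Among the listed peaks the strongest were intronic. The peak at 485864, in the ush intron 6176 bp upstream of cbt and 4971 bp upstream of the ush-RB start, had a signal value of 392.59 combined, 201.6 in replicate 1 and 168.94 in replicate 2. The peak at 520849, 2617 bp upstream of the ush-RA start, had 383.48 combined, 209.53 in replicate 1 and 171.27 in replicate 2. Left of the ush gene, in an intron of CG4297, the peak at 468907 had 293.39 combined, 157.23 in replicate 1 and 133.38 in replicate 2. These 3 were listed in both replicates, and each had less than the candidates at 481085, 480074 and 472478 in every list.

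Between the ush-RB and ush-RA starts 7 peaks passed and all 7 were listed, from 118.39 to 383.48. The summits at 516226 (228.68) and 512269 (202.16) lay 7240 bp upstream of ush-RA and further out. Those at 522152 (171.22) and 522937 (118.39) lay 1314 and 529 bp upstream of ush-RA, and the peak at 522152 had its summit at the same base in both replicates. From the ush-RA start to the end of the gene only 3 passed, from 75.53 to 126.91. Beyond the end of ush 2 passed, with 63.66 and 13.95, both in lwr, which encodes the SUMO-conjugating enzyme. The highest passing candidate of the locus was thus the 2348.9 near cbt and the lowest the 13.95 in lwr. Values did not fall steadily with distance from cbt, as the 383.48 at 520849 was above the 116.01 inside cbt. The candidate with 13.95 had rank 64051 and a −log10 q of 0.171, and it overlaps its neighbour of 63.66. The replicate candidates that it overlaps did not pass, with a −log10 IDR of 1.839 in replicate 1 and 0.265 in replicate 2.

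The starts of the 2 genes differed in the candidates near them. ush has 4 annotated start positions, and the values that follow are the highest candidate within 500 bp of each. At the start of ush-RD and ush-RE (476220) the only candidate had a signal value of 2.97 with a −log10 IDR of 0.105, where replicate 1 had 8.69 and replicate 2 had no candidate. At the ush-RB start (490835) the peak 56 bp upstream had 126.41 combined, 78.68 in replicate 1 and 52.55 in replicate 2. The non-coding gene lncRNA:CR46258 begins at the same base as ush-RB, so this peak cannot be assigned to either. The starts of ush-RA (523466) and ush-RC (523736) lie close together. Their highest peak was 83 bp downstream of the ush-RA start, with 126.91 combined, 70.67 in replicate 1 and 50.56 in replicate 2. A weaker listed peak of 93.54 had its summit at 523749, 13 bp downstream of the ush-RC start. Both peaks overlap the same candidates of the replicates. The replicate 1 summit was 164 bp from that of the higher peak and 36 bp from that of the weaker. The replicate 2 summit with 50.56 was 14 bp from that of the higher peak and 186 bp from that of the weaker. Replicate 2 had a further candidate of 21.44 at 523774, close to the weaker peak, which did not pass. Near the cbt start (479688) the value was 560.26. That candidate, at 2L:479925-480203, does not cover the start and lies in a ush intron, so it cannot be assigned to either gene. By this measure the highest value was near the cbt start and the lowest at the start of the long ush transcripts.

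**Figure D3:**
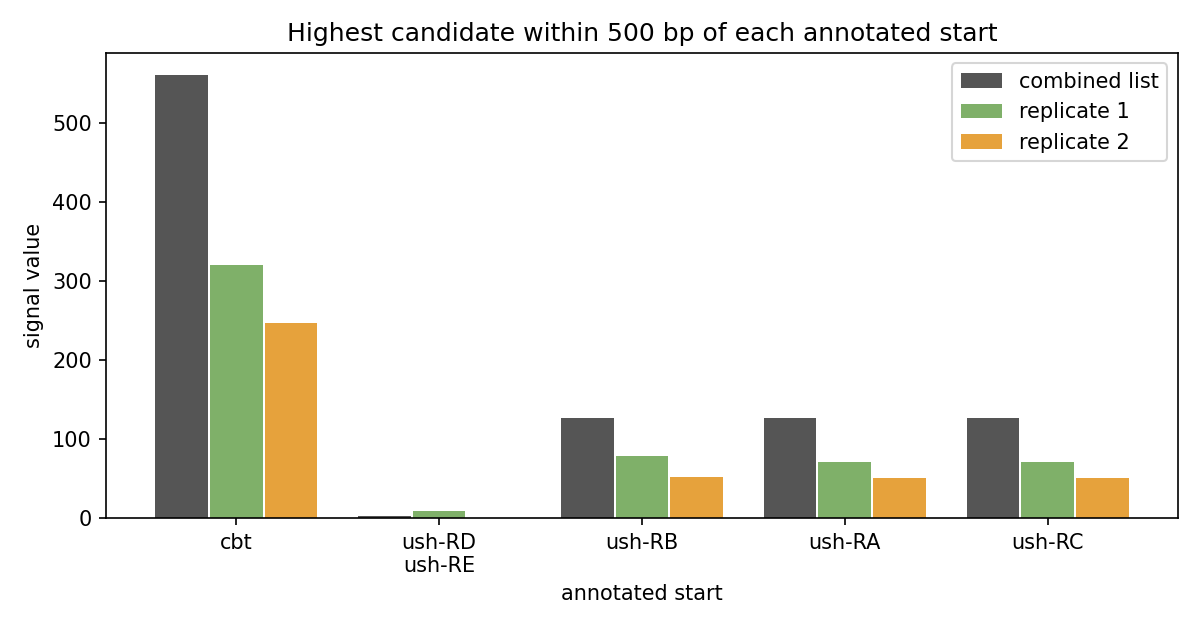
Signal value of the highest candidate within 500 bp of each annotated start of cbt and ush, in the combined list and in each replicate. The cbt bar reaches 560.26 in the combined list, the starts of ush-RB, ush-RA and ush-RC reach 126.41 or 126.91, and the ush-RD and ush-RE start has 2.97, with no candidate in replicate 2.

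Both replicates held most of these candidates. The locus was chosen on the combined list, which joins the same replicates, so overlap with them is a description and no separate support. All 6 candidates that passed without being listed overlapped a passing candidate of both replicates, where 58.7% of the 172 in the whole list did. The 6 also had higher signal values, with a median of 415 against 116 for the 172. Of the 17 listed peaks 13 overlapped a listed peak of both replicates, where 47.9% of all listed peaks did. Another was held by replicate 1 alone, at 488452, where replicate 1 had 63.32 and replicate 2 had 21.89. The 3 that neither replicate listed were the peak at 530459 in ush and both peaks in lwr. The combined value of that ush peak was 75.53. With summits required to lie within 100 bp of each other, 11 of the 17 were held by both replicates.

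Signal values were higher in replicate 1 than in replicate 2 at all 23 passing candidates. The median ratio of replicate 1 to replicate 2 was 1.31 at the locus (1.02 to 2.89) and 1.28 over all passing candidates with a value in both (interquartile range 1.04 to 1.56). The scale of the score may differ between libraries, so the ratio compares the lists and not the amount bound. The median distance between the replicates' summits was 32 bp at the locus (at most 150) and 25 bp over the whole list. In 2 places, at ush-RA and in lwr, a pair of combined candidates overlaps the same candidates of the replicates, so those 4 are not separate observations.

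**Figure D4:**
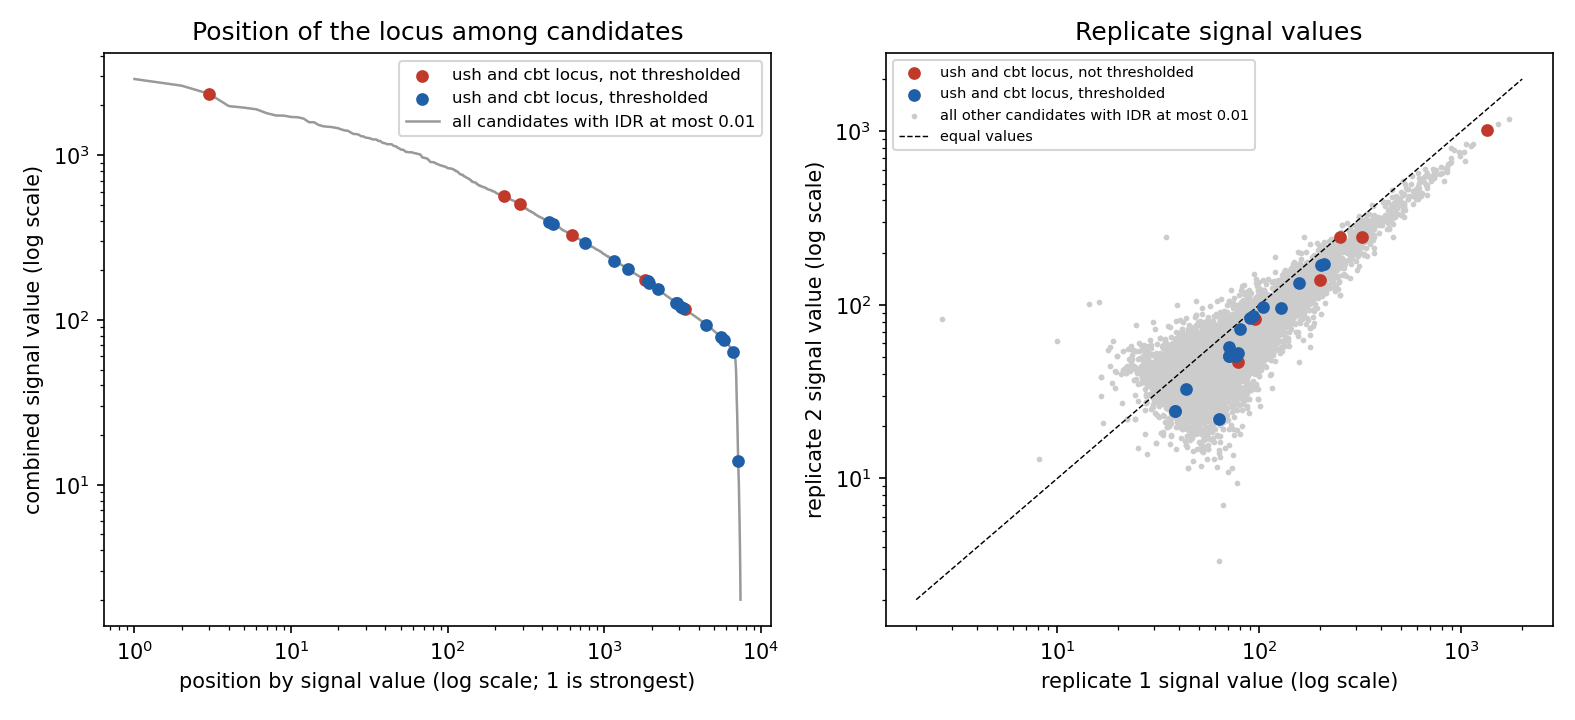
Left, combined signal value against position by signal value among the 7392 passing candidates (both axes log), with the 23 of the locus in red (not listed) and blue (listed). Right, replicate 2 against replicate 1 signal value for the same candidates (both axes log), where all 23 lie below the dashed line of equal values.

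Of the 23 passing candidates of the locus 18 had a signal value above the median of all passing candidates. The median was 168 at the locus and 107 over all, and 5 of the 23 were within the first 500 ranks. Those that were not listed had a median of 415 (116 to 2349), and the listed ones 127 (13.9 to 393). The 103 candidates that did not pass had values from 2.04 to 83.8. Closest to the threshold were the listed peak at 488452, with a −log10 IDR of 2.007 and a signal value of 78.26, and the candidate at 521554, with 1.946 and 55.0, which did not pass. At the edges of the window the outermost candidates inside had 29.93 and 27.51 and the nearest outside 38.18 and 8.39, none of which passed.

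Passing candidates were close together at this locus. The window held 27.3 per 100 kb, against 5.70 per 100 kb over the whole of 2L. Counted within 10 kb of a gene, ush had 23, which put it at position 2 of 13945 protein-coding genes, and cbt had 10, at position 79, with a median gene at 2. The long ush gene has a long window. Per 100 kb cbt stood at position 10 with 43.0 and ush at position 363 with 27.3, against a median of 4.92. Summits of neighbouring passing candidates were 200 to 17261 bp apart, with a median of 1715 bp, and the next passing candidates outside lay 24105 bp to the left of the window and 9729 bp to the right.

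The passing candidates lay in introns more than at starts, and so did all candidates of the locus. Of the 126, 81 had their summit in an intron and 21 within 500 bp of an annotated start. Of the 23 that passed, 14 had their summit in an intron, 7 within 500 bp of an annotated start (30.4%), 1 in the 5′ untranslated region of cbt and 1 in a coding exon of lwr. Over the whole list 46.8% of passing candidates were within 500 bp of a start. The median distance to the nearest start was 1314 bp at the locus and 632 bp over the whole list. A width of exactly 384 bp was recorded for 14 of the 23 (60.9%) and for 78.7% of the whole list, so width does not measure the extent of most of these candidates.

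The windows of all 23 passing candidates, only some of which are printed above, were searched for 11 motifs. Within 50 bp of the summit, on both strands, 8 of the 23 passing candidates held any of them (34.8%), as did 47.1% of all passing candidates and 55.1% of all candidates on the arms. The order of these shares depends on the window: within 25 bp of the summit the locus again had 8 of 23 (34.8%), against 27.2% of all passing candidates and 32.7% of all candidates. The core CACGCCC of Huckebein was in none of the 23 windows, and in 0.772% and 1.81% of the same sets. The Sp and KLF box CACCC was in 1 window, that of the peak with 13.95 in lwr, and in 8.55% and 13.2%. GAGAG, the element of GAGA factor, was in 5 windows (21.7%), and in 12.7% and 12.4%. These were the summits 490779 and 510692, which lie in runs of repeated CT, and 480074, 522152 and 479139.

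The GATA motif AGATAA, of the family of factors that Ush binds, was in 3 windows (13.0%), and in 7.43% and 5.22%. Within 25 bp it was in 1 of 23 (4.35%), against 4.16% of all passing candidates. Its matches were at 522152 and 510692, both in the ush intron, and at 523549 at the ush-RA start, all listed peaks. The motif of BEAF-32, CGATA, was in 1 window, and so was the Medea motif GTCTG, and the Mad motif GCCGNC was in 3. Their shares of all passing candidates were 12.6%, 8.96% and 7.23%. Within 25 bp the Mad motif was in 1 of 23 (4.35%), against 3.48% of all passing candidates, and the BEAF-32 motif in none. The motifs of Zelda (CAGGTAG), DREF (TATCGATA, which contains CGATA), AP-1 (TGANTCA) and the E-box (CACGTG) were in none, and in 0.582%, 0.785%, 2.63% and 0.826% of all passing candidates. The window of the strongest candidate, at 481085, and those at 472478, 481974, 485864 and 520849 held none of the 11. A match or its absence describes these letters in this window and says nothing about binding of a factor.

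Base composition was close to the list as a whole. GC content in the 101 bp windows had a median of 33.7% at the locus (22.8 to 64.4) and 34.7% over all passing candidates. It was 31.2% for the 6 that were not listed and 37.6% for the 17 that were. Bases that RefSeq masks as repeats or low complexity were in 21 of the 23 candidates (91.3%), all 6 that were not listed included, and in 93.3% of all passing candidates.

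Genes with a highest candidate within 10 kb most like that of ush and cbt were looked for over the 4 ranked lists, by the distance between log10 signal values. Genes whose highest candidate belongs to the locus were left out, namely CG4297, MED15, lwr, Spp and nAChRbeta3, as their windows overlap that of ush. The result is the same for both genes, since they share the strongest candidate. Of the remaining genes the nearest were CG11050 (FBgn0031836) and its neighbour DIP-iota (FBgn0031837), of the immunoglobulin superfamily, with a distance of 0.096. They share a candidate of 2632.57 combined, 1511.27 in replicate 1 and 1106.99 in replicate 2. Next was Ugt35D1 (FBgn0051002), which encodes a UDP-glycosyltransferase, with a distance of 0.148 and values of 1979.59, 1136.49 and 849.19 in the same lists. Within 10 kb ush had 23 passing candidates and cbt 10, against 5 at CG11050, 4 at DIP-iota and 3 at Ugt35D1. The window of ush is the longest of these, so its count is not directly comparable. Per 100 kb ush had 27.3 and cbt 43.0, against 19.2 at CG11050, 16.3 at DIP-iota and 13.8 at Ugt35D1.

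Genes of the pathways in which ush and cbt act were taken as 6 lists, and a gene counted as holding a listed peak when a summit lay inside it or within 1 kb upstream. Of all 13945 protein-coding genes 31.7% held one, while 25.5% held a peak of the replicate 1 list and 22.7% one of the replicate 2 list, the shares to set beside the replicates' counts below. These shares are descriptions with no test, and the gene lists were not matched on gene length. Among the GATA factors and partners of FOG proteins 5 of 9 did (55.6%), 5 in the list of replicate 1 (55.6%) and 3 in that of replicate 2 (33.3%), with grn (158.52) and GATAd (152.53), both GATA factors, CtBP, a corepressor that FOG proteins bind (126.47), and the GATA factor srp of blood and fat body (98.93) highest. The GATA factor pnr, the partner of Ush in the dorsal ectoderm, had 95.88, with 48.43 in replicate 1 and no listed peak in replicate 2. Likewise srp had 47.57 in replicate 1 and no listed peak in replicate 2. Neither ac nor sc, proneural genes that Pannier regulates, held a listed peak. Among blood and heart genes 4 of 11 did (36.4%), a share near that of all genes. In replicate 1 it was 5 of 11 (45.5%), against 25.5% of all genes, and in replicate 2 1 of 11 (9.09%), against 22.7%. Highest were the heart homeobox gene tin (613.82), Pvr, which encodes a receptor of blood cells (107.95), the Runx gene lz of crystal cells (86.44) and the T-box gene mid (72.84).

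Of the Dpp pathway 10 of 18 genes held a listed peak (55.6%). The highest were nej, which encodes the coactivator CBP (597.87), shn, which encodes the cofactor Schnurri (499.27), the signal transducer Mad (472.96) and the receptor gene wit (411.81). Of the genes of dorsal closure and JNK signalling 11 of 16 did (68.8%), with cno, which encodes a junction protein (631.25), the kinase gene msn (430.8), jar, which encodes myosin VI (245.98), and puc, which encodes the JNK phosphatase (238.7) highest. In the replicates' own lists the Dpp counts were 11 in replicate 1 and 10 in replicate 2, and those of dorsal closure 8 in each.

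Of the genes of sugar sensing 8 of 10 held a listed peak (80.0%), and 5 in each replicate. The highest were bigmax, the partner of Mondo (219.81), the kinase gene Sik3 (211.13), chrb (165.12) and the fatty acid synthase gene FASN1 (107.37). FASN1 had 67.3 in replicate 1 and no listed peak in replicate 2. Sin3A, which encodes a corepressor, had a passing candidate of 322.23 that was not listed, as at cbt. Of the Sp and KLF zinc finger genes, the family of cbt and hkb, 6 of 9 held a listed peak (66.7%), 5 in replicate 1 and 4 in replicate 2. Among the 6 were dar1 (328.15), CG42741 (144.29), luna (142.58) and hkb itself (91.26). The gene hkb had 48.22 in replicate 1 and no listed peak in replicate 2. By its own candidates cbt held no listed peak inside the gene or within 1 kb upstream, and the 116.01 and 560.26 there were passing candidates that were not listed.

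**Figure D5:**
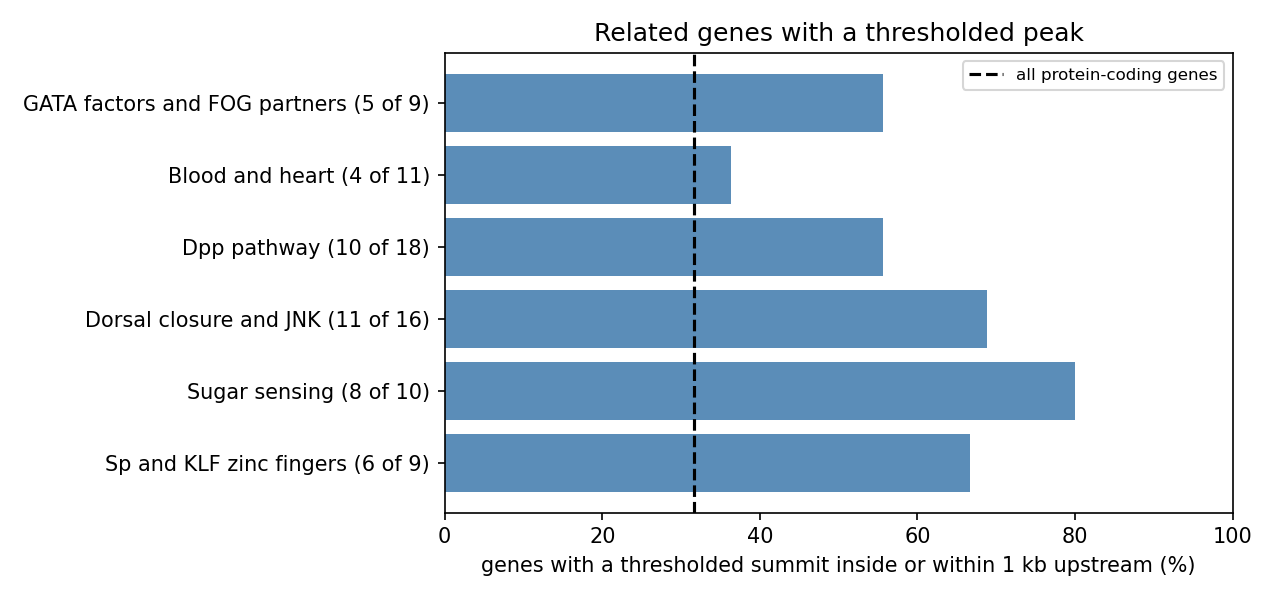
Share of the genes in each of 6 lists of genes related to ush or cbt that held a listed summit inside the gene or within 1 kb upstream (%), with the counts beside the names. The dashed line is the 31.7% of all protein-coding genes, and the bars run from 36.4% for blood and heart to 80.0% for sugar sensing.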

How the data were processed

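ChIP-seq peak lists of 2 replicates of 1 group were used, on dm6 per the labels. Each of the 4 thresholded lists was read beside its ranked list. The signal value and the integer score of each peak are scores the authors deposited without naming a unit. Their deposited lists also hold a −log10 q-value per peak and, in ranked lists, a −log10 IDR. The p-value column holds a placeholder throughout and was not used. A deposited note names a further input for the thresholded lists without its content, and neither aligner nor peak caller is named in the sources used. Depth is unknown.

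Summits were placed on Ensembl release 115 annotation (18164 genes, 35497 transcripts), with sequences from RefSeq Release 6. A candidate was listed when the thresholded list held the same interval and summit. Overlap with a replicate was at least 1 bp, and ranks are by signal value. Named genes followed a rule: ush, cbt, genes nearest to a passing candidate, the 3 most alike genes, the 5 strongest passing candidates outside the locus that were not listed, and up to 4 genes per list. Others, such as pnr, ac, sc and Sin3A, were named after their values were seen. The locus and the gene lists were chosen with earlier results of these data known. No test was made. Scripts (Python 3.11.15, pandas 2.3.3) were tested on simulated lists.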

Additional observations from a re-analysis of the deposited data

How the results depend on the processing

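The counts at the locus, the strongest signal value, the count of summits with a motif and that of pathway genes with a listed peak were recomputed with other distances from the genes, lists, overlaps, IDR thresholds and windows. Of these values 53 stayed near the value given (counts within 1.5 times) and 4 moved, namely 2 signal values, 1 count of candidates and 1 count of summits with a motif. Leaving out a replicate gave 105 to 126 candidates, 18 to 19 passing, 12 to 13 listed and 6 not listed, and the signal value of the strongest candidate was 1018.92 to 1331.73, with rank 3 each time. Each replicate list carries its own scores. With a −log10 IDR of at least 1.3, 13 candidates passed without being listed, which by construction takes in candidates below the threshold of the lists. With 100 bp on either side of the summit 14 passing candidates held a motif, as wider windows hold more letters. For single motifs and gene lists 39 values stayed as near and 13 did not, among them the GATA and Mad motifs, each with 1 window at 25 bp. The GATA and FOG list had 3 genes without replicate 1, the blood and heart list 1, and sugar sensing 5 with either replicate left out. No paired analysis was possible because there is 1 group and no test. Unknown depth limits all values, and no control was used here.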
